A study of Mus musculus with 32 samples.

Results

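The widest age span of the study was read from 12 of its 32 whole-bladder RNA libraries, 6 from untreated mice at 26 months of age and 6 from untreated mice at 2 months. The libraries were chosen by their labels for age and treatment, and no measured value entered the choice. All 12 mice were female C57BL/6, an inbred laboratory strain, no transgene or deleted allele is named for them, and total RNA was sequenced. The 2-month bladders are called young and the untreated 26-month bladders old in what follows. The question was which genes differ between the bladder of a young adult and that of a mouse near the end of its life. Another 5 untreated female C57BL/6 bladders at 10 months, called middle-aged, stayed out of the test, and their levels are given side by side with the others. The remaining libraries of the series came from old mice given oral gavage and are not described. The labels name no cohort, litter, cage or sequencing batch, so age and any such batch cannot be told apart, and 1 sex and 1 strain were sampled.

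The bladder wall has an inner urothelium, whose superficial umbrella cells carry uroplakin plaques that seal the wall against urine, a lamina propria of fibroblasts, vessels and nerves, and an outer coat of detrusor smooth muscle that empties the bladder. Fibrillar collagens and elastin form the wall's scaffold, and their genes are read most while an organ is still growing. Mice of 2 months are sexually mature but have not reached their final body weight. B cells recognise antigen and mature into plasma cells, which secrete antibody, and T cells recognise peptides that major histocompatibility complex (MHC) molecules hold on the cell surface.

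The defining markers of bladder were present at both ages. Myh11, the smooth muscle myosin heavy chain, was at 11259 to 13950 CPM (median 13394) in the young bladders and 10011 to 12395 CPM (median 11265) in the old bladders (CPM are counts scaled to the library size after TMM normalization). Upk2, a uroplakin of the umbrella cells, was at 392 to 514 CPM (median 432) in the young bladders and 364 to 432 CPM (median 419) in the old bladders. The groups overlapped for both genes, and neither passed the test used throughout, edgeR's quasi-likelihood test with a Benjamini-Hochberg adjusted p under 0.05 over all genes tested (adjusted p = 0.0685 and 0.247). Myh11 passed as lower with DESeq2, in both fits with more groups and without young bladder 5 (adjusted p = 0.0052 to 0.0338), and Upk2 without young bladders 1 and 2 (edgeR adjusted p = 0.0441). Because these are whole bladders, fewer cells of a type and less RNA per cell cannot be told apart in any result.

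The counts assigned to genes summed to 15088372 to 33614273 per young bladder (median 29047295) and 30757033 to 52650259 per old bladder (median 34809144). A gene with 3 counts, taken as the floor of detection for counting error only, stood at 0.0892 to 0.199 CPM in young and 0.0570 to 0.0975 CPM in old bladders. In a principal component analysis of the 12 bladders the first component took 57.2% of the variance and separated the ages, while the second, with 11.2%, ran within the young group, with young bladders 1, 2 and 6 at one end and young bladders 3 and 4, the shallowest libraries, at the other. Young bladders 1 and 2 were highest in collagen genes, young bladder 2 also in macrophage, interferon-stimulated and haemoglobin genes, and young bladder 3 in Fos. Among old bladders, number 6 was highest in immunoglobulin genes and number 3 in T cell, MHC and macrophage genes. Counts that rest on these bladders are therefore also given with young bladders 1 and 2, or 3 and 4, left out together, a choice made after seeing the data.

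Of 16873 genes tested, 4229 differed between old and young bladders, which is 25.1%. Of these, 2134 were higher in old bladders (12.6% of the genes tested) and 2095 lower (12.4%). Changes over 1.5-fold were more often rises, with 1053 genes higher (6.24%) and 508 lower (3.01%), and changes over 4-fold comprised 266 rises and 17 falls. The 2134 genes called higher include 85 immunoglobulin segments and constant genes, most of which entered the test through their old-bladder counts. The median log2 fold change was 0.57 among the genes called higher and -0.33 among those called lower, and -0.0021 over all genes tested. In 1136 genes (6.73%) every old bladder lay above every young bladder, and in 1000 genes (5.93%) every old bladder lay below. Falls prevailed among abundant genes, since of 2371 tested genes above 100 CPM in either group 268 were higher and 523 lower in old bladders. The number of changed genes lay between 3466, without old bladder 2, and 5157, without young bladders 3 and 4, over the 25 alternative analyses.

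**Figure D1:**
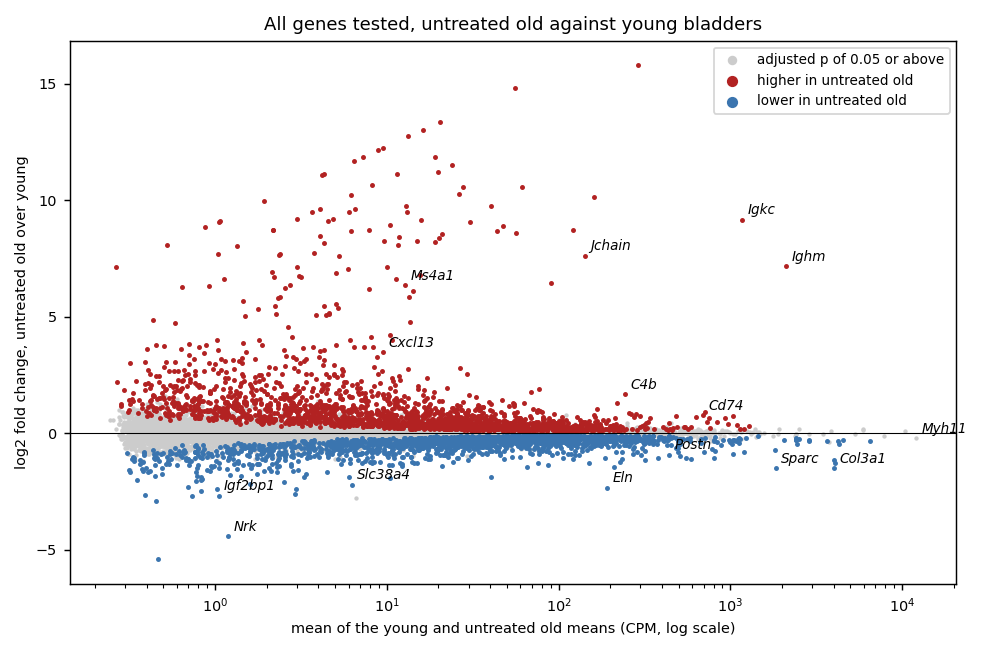
Each point is 1 of the 16873 genes tested, with the mean of the young and old group means in CPM on a log axis and the log2 fold change of old over young on the other axis. Red points were higher and blue points lower in old bladders with an edgeR adjusted p under 0.05. The points at the top are immunoglobulin genes, most of which entered the test through their old-bladder counts. Eln is the gene above 100 CPM that fell most.

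The genes were then read in 37 lists of 655 genes for the cell types and processes of the bladder. Most members of the immunoglobulin list entered the test through their old-bladder counts, so that list was left out of the ranking. Among the others, genes of B cells and T cells had the highest median change, though some of these genes entered the test in the same way. The lowest were those of mast cell and granulocyte genes, collagens and imprinted growth genes. These counts are descriptions and were not tested as sets. Each is to be read beside the shares over all genes, 12.6% called higher and 12.4% called lower. For genes without overlap the shares were 6.73% with every old bladder above and 5.93% with every old bladder below.

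**Figure D2:**
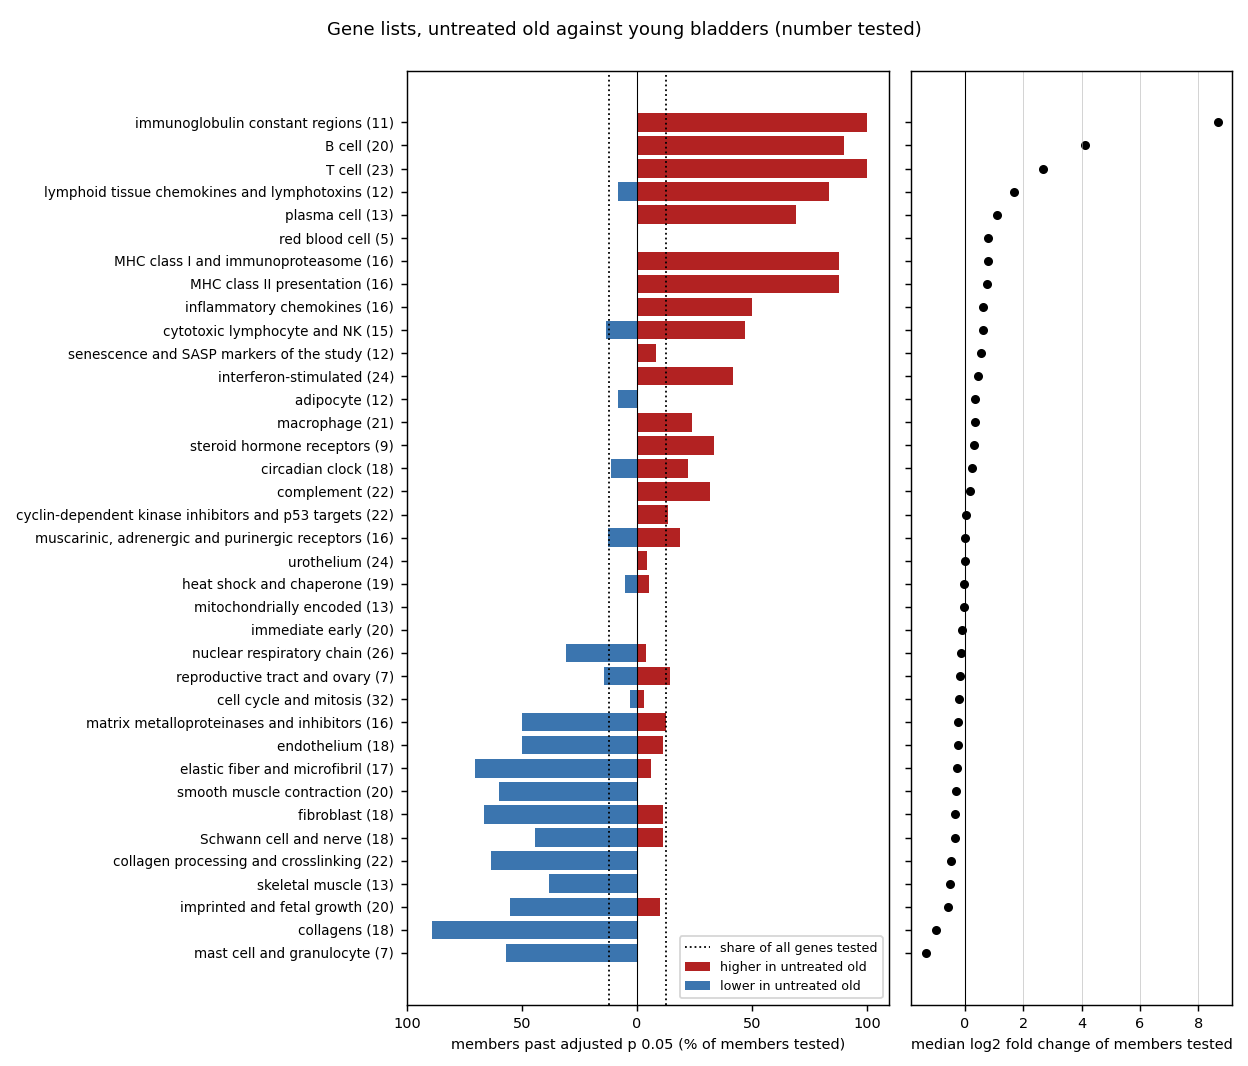
The left panel gives, for each of the 37 gene lists with its number of tested members, the share of members higher (red) or lower (blue) in old bladders with an edgeR adjusted p under 0.05, and the dotted lines mark the shares over all genes tested, 12.6% and 12.4%. The right panel gives the median log2 fold change of the tested members, from -1.35 for mast cell and granulocyte genes to 8.67 for immunoglobulin constant regions.

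Genes of B cells rose further than any other cell type list, with the immunoglobulins left out of the ranking. Of the 20 B cell genes, 18 were higher in old bladders against 12.6% of all genes and none was lower, with a median log2 fold change of 4.10. In 14 every old bladder lay above every young bladder, against 6.73% of all genes. The summed level of the list was 36.6 to 82.9 CPM in the young and 199 to 462 CPM in the old bladders, with old bladder 1 highest and old bladder 3 lowest. When genes needed 10 or more counts in each of the 12 bladders, few of these genes could be tested, and 5 remained called. All 20 had more than 3 counts in at least 4 young bladders, but members with few young counts entered the test through their old-bladder counts. For those members the direction follows in part from the filter, so the counts and the rank of the list are not independent of it.

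Ms4a1 (ENSMUSG00000024673, chromosome 19 of mm10, 11249675 to 11266241), the gene of the surface protein CD20, was at 0 to 0.622 CPM (median 0.2801) in the young bladders and 15.5 to 44.6 CPM (median 20.9) in the old bladders, and all 6 old bladders stood far above all young bladders (log2 fold change 6.35, standard error 0.44, edgeR adjusted p = 1.39e-06). Cd79a, a signalling subunit of the B cell receptor, went from 0.306 to 0.749 CPM (median 0.348) in young bladders to 15.03 to 44.1 CPM (median 25.1) in old bladders. Old bladders were again all higher (log2 fold change 5.86, edgeR adjusted p = 8.02e-07). Pax5, the transcription factor that fixes B cell identity, was at 0 to 0.345 CPM (median 0.179) in the young bladders and 6.99 to 29.0 CPM (median 11.5) in the old bladders (log2 fold change 6.18, edgeR adjusted p = 4.42e-06). Pou2af1, a coactivator of immunoglobulin gene transcription, was at 0.0611 to 0.542 CPM (median 0.293) in the young bladders and 15.8 to 56.7 CPM (median 29.4) in the old bladders (log2 fold change 6.79, edgeR adjusted p = 8.02e-07). The receptors Fcmr, which binds immunoglobulin M, and Tnfrsf13c, which binds the survival factor BAFF, also rose without overlap, with log2 fold changes of 5.38 and 5.06 (edgeR adjusted p = 1.28e-06 and 5.95e-06). In the middle-aged bladders the highest Ms4a1 level was 1.404 CPM (median 0.443), under the lowest old bladder. These genes, and Jchain, Mzb1 and Cxcr5 below, are among the 10 largest rises. The rule for naming those required no overlap between young and old bladders, so the lack of overlap is no separate result. Ms4a1, Pax5, Pou2af1, Mzb1 and Cxcr5 had few young counts and entered the test through their old-bladder counts. The sizes of their rises are therefore uncertain. Over the alternatives the log2 fold change ran from 3.64 to 6.71 for Ms4a1 and 2.55 to 6.40 for Pax5. It ran from 4.80 to 7.01 for Pou2af1, 5.13 to 7.05 for Mzb1 and 2.88 to 5.62 for Cxcr5.

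Of 13 plasma cell genes, 9 were higher and none lower in old bladders (median log2 fold change 1.09). Jchain (ENSMUSG00000067149, chromosome 5 of mm10, 88519809 to 88527891), which links immunoglobulin units into polymers, was at 0.745 to 2.25 CPM (median 1.17) in the young bladders and 113 to 732 CPM (median 188) in the old bladders. The rise passed without overlap (log2 fold change 7.62, standard error 0.56, edgeR adjusted p = 1.73e-06), and old bladder 6 alone stood at 732 CPM while the next stood at 332 CPM. Mzb1, a chaperone of antibody assembly in the endoplasmic reticulum, was at 0 to 0.461 CPM (median 0.193) in the young bladders and 10.2 to 43.7 CPM (median 15.5) in the old bladders (log2 fold change 6.596, edgeR adjusted p = 4.75e-06). Derl3, of the machinery that removes misfolded proteins from that compartment, was at 0.298 to 1.08 CPM (median 0.663) in the young bladders and 4.501 to 27.2 CPM (median 8.399) in the old bladders (log2 fold change 3.98, edgeR adjusted p = 6.83e-05). Irf4, a transcription factor of plasma cells and of activated lymphocytes, was at 4.33 to 7.15 CPM (median 6.13) in the young bladders and 15.3 to 47.5 CPM (median 18.5) in the old bladders, with no overlap (log2 fold change 2.02, edgeR adjusted p = 0.000159). Xbp1, a regulator of secretion that many bladder cells also express, was already at 137 to 176 CPM (median 151) in young bladders and reached 163 to 261 CPM (median 186) in old bladders, where the groups overlapped. Its smaller rise (log2 fold change 0.34, edgeR adjusted p = 0.0213) lost the call without young bladders 3 and 4.

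Immunoglobulin transcripts took 0.00258% to 0.00669% of the counts in young bladders, 0.00775% to 0.0688% in middle-aged bladders and 0.375% to 2.81% in old bladders, so that the lowest old bladder lay above the highest middle-aged one. All 11 constant region genes tested of 12 were higher in old bladders, but only 5 of them had more than 3 counts in at least 4 young bladders, so most entered the test through their old-bladder counts. Of 218 variable gene segments in the table, 5 to 13 had more than 3 counts in a young bladder, 15 to 83 in a middle-aged bladder and 127 to 187 in an old bladder. The 85 immunoglobulin segments and constant genes tested were all higher in old bladders, but most of them too entered the test through their old-bladder counts, so their shared direction follows from the filter. Reads of such similar genes may be split or dropped in counting, so single segments are uncertain.

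Ighm (ENSMUSG00000076617, chromosome 12 of mm10, 113418558 to 113422730), the heavy chain of immunoglobulin M, was at 19.5 to 54.7 CPM (median 23.9) in the young bladders and 1618 to 10960 CPM (median 2635) in the old bladders, and at 40.98 to 243 CPM (median 223) in the middle-aged bladders. The ages did not overlap (log2 fold change 7.16, standard error 0.57, edgeR adjusted p = 2.97e-06), and the highest young value was that of young bladder 2 and the highest old value that of old bladder 6. Igkc (ENSMUSG00000076609, chromosome 6 of mm10, 70726435 to 70726966), the kappa light chain constant region, was at 0.834 to 8.13 CPM (median 3.49) in the young bladders and 899 to 5777 CPM (median 1442) in the old bladders, and at 11.8 to 164 CPM (median 148) in the middle-aged bladders. The old bladders were all higher (log2 fold change 9.16, standard error 0.65, edgeR adjusted p = 1.39e-06). Igha, the heavy chain of immunoglobulin A, the class secreted onto mucosal surfaces, was at 0.432 to 4.801 CPM (median 1.904) in the young bladders and 32.8 to 422 CPM (median 98.9) in the old bladders. All old bladders were higher (log2 fold change 6.45, edgeR adjusted p = 0.000156). Ighg2b, the heavy chain of a class of immunoglobulin G, was at 0 to 1.002 CPM (median 0.555) in the young bladders and 70.3 to 725 CPM (median 125) in the old bladders (log2 fold change 8.71, edgeR adjusted p = 8.78e-06). Iglc3, a lambda light chain constant region, had at most 3 counts in every young bladder and was at 3.703 to 23.1 CPM (median 7.86) in old bladders, so its edgeR call (adjusted p = 4.17e-06) is given without a fold change. Ighe, of immunoglobulin E, had too few counts to be tested.

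T cell genes rose as a whole list and by smaller factors than the B cell genes. All 23 members tested were higher in old bladders, and in all of them every old bladder lay above every young bladder, against 6.73% of all genes. The median log2 fold change was 2.68, and 22 of the 23 had more than 3 counts in at least 4 young bladders. The summed level was 37.8 to 53.7 CPM in the young and 114 to 242 CPM in the old bladders, highest in old bladder 3, the bladder lowest in B cell genes, and lowest in old bladder 4. With at least 10 counts required in every bladder, 13 could still be called.

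Cd3e (ENSMUSG00000032093, chromosome 9 of mm10, 44998740 to 45009627), a subunit of the T cell receptor complex, was at 0.48996 to 1.38 CPM (median 0.864) in the young bladders and 5.71 to 11.2 CPM (median 7.62) in the old bladders. The ages were separate (log2 fold change 3.12, standard error 0.23, edgeR adjusted p = 1.47e-06). Trac, the alpha chain constant region of that receptor, was at 0.922 to 1.48 CPM (median 1.12) in the young bladders and 5.24 to 14.2 CPM (median 8.25) in the old bladders (log2 fold change 2.92, edgeR adjusted p = 4.38e-06). Zap70, the kinase that carries its signal, was at 1.62 to 1.85 CPM (median 1.66) in the young bladders and 5.24 to 10.1 CPM (median 7.31) in the old bladders, with a young group that spanned a narrow range (log2 fold change 2.101, edgeR adjusted p = 2.28e-06). Ctla4 (ENSMUSG00000026011, chromosome 1 of mm10, 60887000 to 60915832), an inhibitory receptor of activated and regulatory T cells, had at most 5 counts in any young bladder and was at 0 to 0.185 CPM (median 0.0824) in the young bladders and 1.07 to 5.31 CPM (median 2.72) in the old bladders. It entered the test through its old-bladder counts, so its edgeR call (adjusted p = 1.01e-05) is given without a fold change, and its middle-aged levels were 0.0275 to 0.227 CPM (median 0.0816), within the young range at their median. Cd4, Cd8a and Foxp3, which mark helper, cytotoxic and regulatory T cells, were all among the genes that rose, with log2 fold changes of 1.496, 3.17 and 1.704 (edgeR adjusted p = 0.000756, 0.000289 and 0.00282). These 3 were named after their values were seen.

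Cytotoxic and natural killer genes moved in both directions. Of 15 tested, 7 were higher and 2 lower in old bladders, against 12.6% and 12.4% of all genes, so the share lower was near that over all genes. Gzmk (ENSMUSG00000042385, chromosome 13 of mm10, 113171608 to 113225908), a granzyme of memory-type T cells, had at most 6 counts in any young bladder and was at 0 to 0.207 CPM (median 0.0644) in the young bladders and 1.12 to 12.1 CPM (median 3.97) in the old bladders. All old bladders were above all young bladders, with old bladder 3 far above the rest. Like Ctla4 it entered the test through its old-bladder counts, and its edgeR call (adjusted p = 0.000121) is given without a fold change. Ccl5, a chemokine of T cells and natural killer cells, was at 2.505 to 4.86 CPM (median 3.73) in the young bladders and 7.75 to 50.5 CPM (median 15.7) in the old bladders, again led by old bladder 3 (log2 fold change 2.44, edgeR adjusted p = 0.000979). Tbx21, the T-bet transcription factor, was at 1.78 to 2.62 CPM (median 2.03) in the young bladders and 3.495 to 4.84 CPM (median 4.26) in the old bladders, without overlap (log2 fold change 1.03, edgeR adjusted p = 4.91e-05). Cst7, an inhibitor of the proteases of cytotoxic granules, was at 0.0677 to 0.414 CPM (median 0.268) in the young bladders and 1.21 to 6.04 CPM (median 1.68) in the old bladders (log2 fold change 3.103, edgeR adjusted p = 0.000453). Cst7 too entered the test through its old-bladder counts, and its log2 fold change ran from 2.13 to 3.30 over the alternatives. The falls were Gzma, a granzyme typical of natural killer cells, at 1.59 to 4.15 CPM (median 3.37) in the young bladders and 0.604 to 1.902 CPM (median 1.31) in the old bladders, and Ncr1, the activating receptor that defines natural killer cells, at 0.812 to 2.26 CPM (median 1.38) in the young bladders and 0.242 to 1.12 CPM (median 0.413) in the old bladders. Old bladders were lower in both with some overlap (log2 fold change -1.33, edgeR adjusted p = 0.00564 for Gzma and log2 fold change -1.41, edgeR adjusted p = 0.0105 for Ncr1), and Ncr1 lost its call without young bladders 1 and 2.

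**Figure D3:**
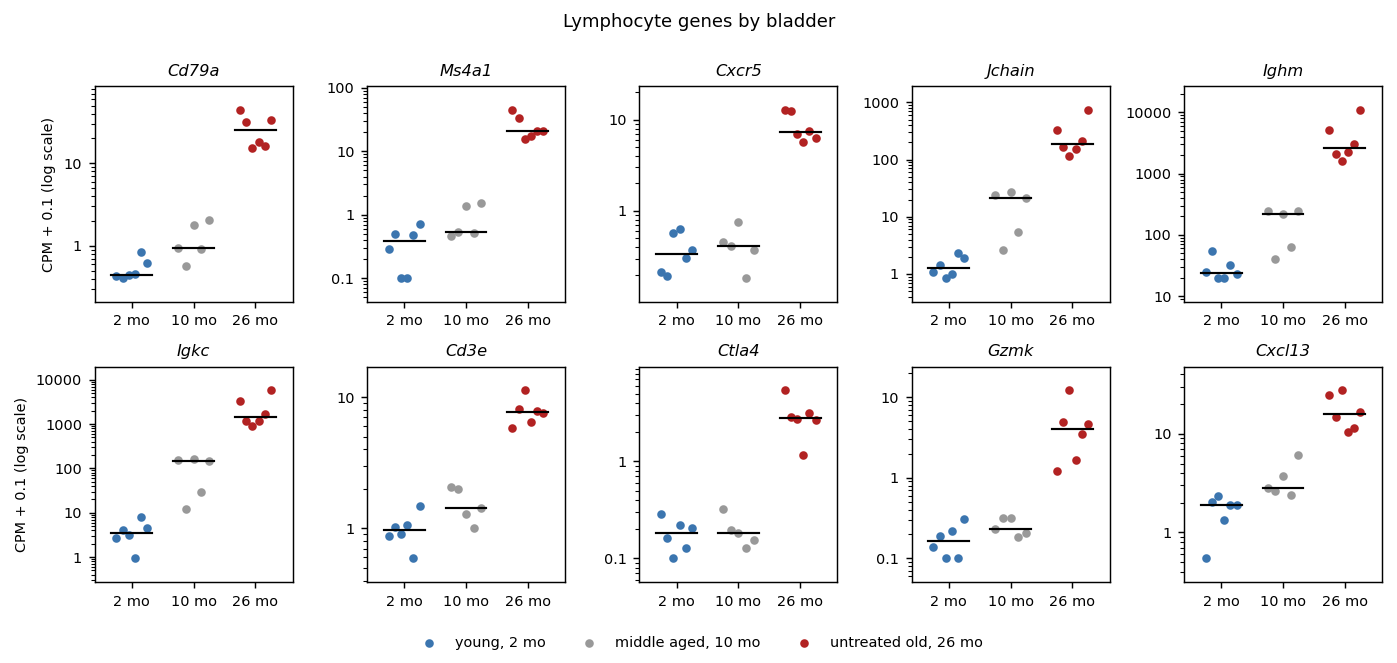
Levels of 10 lymphocyte genes in every young (blue, 2 months), middle-aged (grey, 10 months) and old (red, 26 months) bladder, as CPM plus 0.1 on a log axis, with the group median as a bar. All 6 old bladders lie above all young bladders in each panel, and Jchain, Ighm and Igkc are higher in several middle-aged bladders than in any young bladder.

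Chemokines and cytokines that build lymphoid tissue rose in old bladders too. Of 12 tested, 10 were higher and 1 was lower, with a median log2 fold change of 1.68. Cxcl13 (ENSMUSG00000023078, chromosome 5 of mm10, 95956951 to 95961068), the chemokine that draws B cells into follicles, was at 0.445 to 2.23 CPM (median 1.81) in the young bladders and 10.3 to 27.5 CPM (median 15.7) in the old bladders. There was no overlap (log2 fold change 3.47, standard error 0.34, edgeR adjusted p = 1.24e-05), and the middle-aged bladders were at 2.29 to 6.02 CPM (median 2.72). Cxcr5, its receptor on B cells and follicular helper T cells, was at 0.0917 to 0.536 CPM (median 0.239) in the young bladders and 5.53 to 12.7 CPM (median 7.205) in the old bladders (log2 fold change 5.08, edgeR adjusted p = 1.62e-06). Ltb, the lymphotoxin subunit made by lymphocytes, was at 0.953 to 2.38 CPM (median 1.702) in the young bladders and 9.01 to 25.3 CPM (median 15.4) in the old bladders (log2 fold change 3.25, edgeR adjusted p = 3.38e-06). Ltbr, the lymphotoxin receptor on stromal and epithelial cells, moved the other way, at 128 to 146 CPM (median 132) in the young bladders and 99.6 to 110.4 CPM (median 105) in the old bladders, with every old bladder below every young one (log2 fold change -0.35, edgeR adjusted p = 5.57e-05). Ccl19 and Ccl21a were not matched in the table and Madcam1 had too few counts, so these other signals of lymphoid tissue were not read.

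Antigen presentation rose in both classes of MHC. Of 16 class II genes, 14 were higher and none lower (median log2 fold change 0.77), and of 16 class I and immunoproteasome genes 14 were higher and none lower (median 0.78). In 10 and 14 of them every old bladder lay above every young bladder, against 6.73% of all genes. The class II list summed to 1165 to 1407 CPM in the young and 1774 to 2615 CPM in the old bladders and the class I list to 2039.9 to 2394 CPM in the young and 3107 to 5070.5 CPM in the old bladders, both highest in old bladder 3. Over the alternatives the counts stayed between 12 and 15 for class II and 14 and 15 for class I.

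The promoters of these genes hold known sequence elements, and the 250 bases before the start of the genes whose rise is described next are printed for the reader, from RefSeq on GRCm38.p6 (mm10), 5′ to 3′ on the gene's own strand. Capitals mark each CCAAT box, spelled CCAAT or, on the other strand, ATTGG, and in B2m also a match to GAAA followed, after any 2 bases, by a second GAAA, the core of the interferon-stimulated response element. H2-K1 has 2 such windows in the table, of which 1 is shown.
H2-Aa (chr17:34287824-34288073, minus strand): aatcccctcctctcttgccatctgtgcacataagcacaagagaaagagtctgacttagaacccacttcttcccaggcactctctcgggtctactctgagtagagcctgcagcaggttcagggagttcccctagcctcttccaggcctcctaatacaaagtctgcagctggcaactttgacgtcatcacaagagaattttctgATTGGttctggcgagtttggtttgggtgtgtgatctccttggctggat
H2-Eb1 (chr17:34305617-34305866, plus strand): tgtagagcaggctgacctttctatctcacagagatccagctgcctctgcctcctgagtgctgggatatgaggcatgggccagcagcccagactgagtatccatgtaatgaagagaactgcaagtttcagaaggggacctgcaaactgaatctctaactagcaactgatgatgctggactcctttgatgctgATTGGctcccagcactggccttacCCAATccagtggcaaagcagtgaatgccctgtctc
H2-K1 (chr17:34000348-34000597, minus strand): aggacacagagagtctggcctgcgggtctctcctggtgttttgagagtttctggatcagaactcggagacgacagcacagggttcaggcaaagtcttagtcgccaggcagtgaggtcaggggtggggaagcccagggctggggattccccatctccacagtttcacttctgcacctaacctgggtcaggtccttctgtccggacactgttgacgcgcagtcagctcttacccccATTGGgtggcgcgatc
H2-Q7 (chr17:35438905-35439154, plus strand): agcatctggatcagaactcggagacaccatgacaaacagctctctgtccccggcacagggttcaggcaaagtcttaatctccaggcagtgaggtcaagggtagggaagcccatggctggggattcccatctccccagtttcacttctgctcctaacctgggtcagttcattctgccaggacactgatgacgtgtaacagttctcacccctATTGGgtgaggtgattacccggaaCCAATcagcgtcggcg
B2m (chr2:122147437-122147686, plus strand): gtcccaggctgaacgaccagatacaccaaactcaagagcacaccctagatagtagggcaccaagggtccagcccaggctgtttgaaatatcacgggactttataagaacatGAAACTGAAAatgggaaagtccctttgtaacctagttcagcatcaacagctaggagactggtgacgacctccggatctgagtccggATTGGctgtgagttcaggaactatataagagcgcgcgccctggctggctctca
A CCAAT box occurred in 8 of the 12 class II and 11 of the 14 class I genes that had a window, against 37.5% of all 27025 genes in the table, and the interferon element, searched on both strands, in 1 and 3 of them, against 3.46% of all genes. These letter matches are descriptions of the windows only.

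H2-Eb1 (ENSMUSG00000060586, chromosome 17 of mm10, 34305867 to 34316674), a beta chain of class II, was at 153 to 217 CPM (median 179) in the young bladders and 270.4 to 403 CPM (median 326) in the old bladders. Every old bladder was higher (log2 fold change 0.87, standard error 0.11, edgeR adjusted p = 8.14e-05). H2-Aa, an alpha chain, was at 192 to 251 CPM (median 226) in the young bladders and 296 to 455 CPM (median 374) in the old bladders (log2 fold change 0.74, edgeR adjusted p = 0.000197). Cd74 (ENSMUSG00000024610, chromosome 18 of mm10, 60803848 to 60812652), the invariant chain that guides class II molecules to their peptides, was at 447 to 579 CPM (median 516) in the young bladders and 721 to 1041 CPM (median 888) in the old bladders, again without overlap (log2 fold change 0.78, standard error 0.097, edgeR adjusted p = 7.94e-05). H2-Ob, a class II subunit that is largely a B cell product, rose further, at 2.74 to 4.16 CPM (median 3.32) in the young bladders and 9.002 to 39.8 CPM (median 19.7) in the old bladders (log2 fold change 2.77, edgeR adjusted p = 7.25e-05). Ciita, the transactivator of class II genes, rose with a log2 fold change of 1.16 (edgeR adjusted p = 0.000142), and was named after its value was seen. The middle-aged bladders were at 184 to 229 CPM (median 209) for H2-Eb1 and 468 to 615 CPM (median 551) for Cd74.

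H2-Q7 (ENSMUSG00000060550, chromosome 17 of mm10, 35439155 to 35443773), a nonclassical class I heavy chain, was at 24.3 to 38.7 CPM (median 33.2) in the young bladders and 81.2 to 180.4 CPM (median 117) in the old bladders, with a wide gap between the ages (log2 fold change 1.897, standard error 0.18, edgeR adjusted p = 1.26e-05). H2-Q6 moved much like it (log2 fold change 1.76, edgeR adjusted p = 7.53e-06), but reads of these near-identical genes may be split between them. H2-K1, a classical class I heavy chain, was at 461 to 524 CPM (median 496) in the young bladders and 726 to 1308 CPM (median 856) in the old bladders (log2 fold change 0.902, edgeR adjusted p = 0.000184). B2m (ENSMUSG00000060802, chromosome 2 of mm10, 122147686 to 122153083), the light chain shared by all class I molecules, was at 398 to 564 CPM (median 471) in the young bladders and 628 to 1042 CPM (median 707) in the old bladders, without overlap (log2 fold change 0.705, standard error 0.14, edgeR adjusted p = 0.00216). Nlrc5, the transactivator of class I genes, was at 29.5 to 40.02 CPM (median 31.9) in the young bladders and 54.4 to 104 CPM (median 74.2) in the old bladders (log2 fold change 1.17, edgeR adjusted p = 4.98e-05). B2m overlaps Patl2 in the annotation, and Nlrc5 overlaps another transcript.

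Interferon-stimulated genes were higher in old bladders to an extent that depended on young bladder 2. Of 24 tested, 10 were higher, none was lower and the median log2 fold change was 0.44, and in none did every old bladder lie above every young one. Without young bladder 2 the number was 21, without young bladders 1 and 2 23, and without young bladders 3 and 4 6. The list summed to 677 to 1106 CPM in the young and 866 to 1304 CPM in the old bladders, with young bladder 2 at 1106 CPM, young bladder 1 at 902 CPM and the next young bladder at 741 CPM.

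Zbp1, a sensor of Z-form nucleic acids, was at 3.83 to 11.7 CPM (median 4.33) in the young bladders and 9.803 to 19.7 CPM (median 14.5) in the old bladders, the highest young value being that of young bladder 2 (log2 fold change 1.25, edgeR adjusted p = 0.00415). Oas1a, an antiviral synthetase, was at 2.19 to 6.48 CPM (median 3.11) in the young bladders and 5.76 to 9.7995 CPM (median 7.35) in the old bladders (log2 fold change 1.095, edgeR adjusted p = 0.00362), and young bladder 2 again stood apart at 6.48 CPM while the other young bladders reached 3.34 CPM. Isg15, a ubiquitin-like protein, was at 2.74 to 8.13 CPM (median 3.56) in the young bladders and 5.12 to 7.22 CPM (median 5.76) in the old bladders and did not pass the test (log2 fold change 0.43, edgeR adjusted p = 0.208), which it did without young bladder 2 (log2 fold change 0.72, edgeR adjusted p = 0.0051). Of the 18 interferon-stimulated genes with a promoter window, 11 held the interferon element.

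Complement genes rose in part. Of 22 tested, 7 were higher and none lower, with a median log2 fold change of 0.18. C4b (ENSMUSG00000073418, chromosome 17 of mm10, 34728380 to 34743882), a component of the classical and lectin pathways, was at 92.4 to 133 CPM (median 122) in the young bladders and 282 to 559 CPM (median 339.9) in the old bladders, with 145 to 167 CPM (median 149) in the middle-aged bladders. The old bladders stood clear of the young ones (log2 fold change 1.68, standard error 0.16, edgeR adjusted p = 1.21e-05). C6, of the membrane attack complex, was at 0.271 to 1.24 CPM (median 0.732) in the young bladders and 2.32 to 20.5 CPM (median 5.15) in the old bladders, with the highest value in old bladder 3 (log2 fold change 3.27, edgeR adjusted p = 0.0005401). C3, the component on which all complement pathways meet, was at 543 to 1345 CPM (median 636) in the young bladders and 937 to 1606 CPM (median 1325) in the old bladders, and young bladders 2 and 6 lay inside the old range (log2 fold change 0.75, edgeR adjusted p = 0.0195). Cfb, of the alternative pathway, was at 33.7 to 57.6 CPM (median 47.3) in the young bladders and 54.7 to 87.7 CPM (median 71.7) in the old bladders (log2 fold change 0.66, edgeR adjusted p = 0.002504). The number of complement genes called was 11 without young bladder 2 and 4 without young bladders 3 and 4, where C3 lost its call.

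Some inflammatory chemokines and macrophage genes rose too. Of 16 chemokines and receptors, 8 were higher in old bladders and none lower. The number higher was 4 without old bladder 3, 4 without young bladders 3 and 4, and 5 without young bladder 1, 4 or 5 or old bladder 6. It was 11 without young bladder 2 and 10 without young bladders 1 and 2. Ccl8 (ENSMUSG00000009185, chromosome 11 of mm10, 82115185 to 82116799), a monocyte chemokine, was at 2.64 to 11.4 CPM (median 6.51) in the young bladders and 18.3 to 126 CPM (median 30.5) in the old bladders. No bladder overlapped, and old bladder 3 stood at 126 CPM, far above the others (log2 fold change 2.79, standard error 0.51, edgeR adjusted p = 0.00135). Ccl6, a chemokine of myeloid cells, was at 20.2 to 41.03 CPM (median 30.8) in the young bladders and 33.1 to 75.9 CPM (median 46.9) in the old bladders (log2 fold change 0.72, edgeR adjusted p = 0.0213), and lost its call without young bladders 3 and 4. Of 21 macrophage genes, 5 were higher and none lower, and the number was 11 without young bladder 2, 11 in a fit of all 6 groups of the series and 3 without young bladders 3 and 4.

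Lyz2, the lysozyme of myeloid cells, was at 219 to 372 CPM (median 249) in the young bladders and 340.3 to 492 CPM (median 417) in the old bladders, and young bladder 2 was the young bladder inside the old range (log2 fold change 0.65, edgeR adjusted p = 0.00284). Cd68, a lysosomal protein of macrophages, was at 20.2 to 32.7 CPM (median 24.2) in the young bladders and 31.2 to 44.8 CPM (median 33.8) in the old bladders (log2 fold change 0.49, edgeR adjusted p = 0.00678). Gpnmb, a glycoprotein of lipid-laden macrophages that fibroblasts and melanocytes also make, was at 81.3 to 204 CPM (median 134) in the young bladders and 179.8 to 210.03 CPM (median 204) in the old bladders (log2 fold change 0.54, edgeR adjusted p = 0.01898). Adgre1, which encodes the macrophage antigen F4/80, was at 26.8 to 139 CPM (median 34.9) in the young bladders and 32.3 to 65.4 CPM (median 40.2) in the old bladders and did not pass (log2 fold change -0.24, edgeR adjusted p = 0.704), its highest value being that of young bladder 2. It was named after its value was seen.

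Mast cell genes went the other way. Of 7 mast cell and granulocyte genes with enough counts, of 16 listed, 4 were lower in old bladders and none higher. Cma1, a mast cell chymase, was at 1.8998 to 2.78 CPM (median 2.37) in the young bladders and 0.593 to 1.47 CPM (median 0.856) in the old bladders, without overlap (log2 fold change -1.35, edgeR adjusted p = 0.000246). Tpsb2, a mast cell tryptase, was at 1.56 to 3.18 CPM (median 2.38) in the young bladders and 0.4995 to 1.53 CPM (median 0.729) in the old bladders (log2 fold change -1.47, edgeR adjusted p = 0.001802). Cpa3, the mast cell carboxypeptidase, was at 0.812 to 3.15 CPM (median 1.88) in the young bladders and 0.475 to 1.05 CPM (median 0.603) in the old bladders (log2 fold change -1.53, edgeR adjusted p = 0.00169). All old bladders lay below all young bladders for Cma1 and Tpsb2, and the middle-aged medians were 0.925 CPM for Cma1 and 1.08 CPM for Tpsb2. The neutrophil and eosinophil genes of the list were among those with too few counts.

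**Figure D4:**
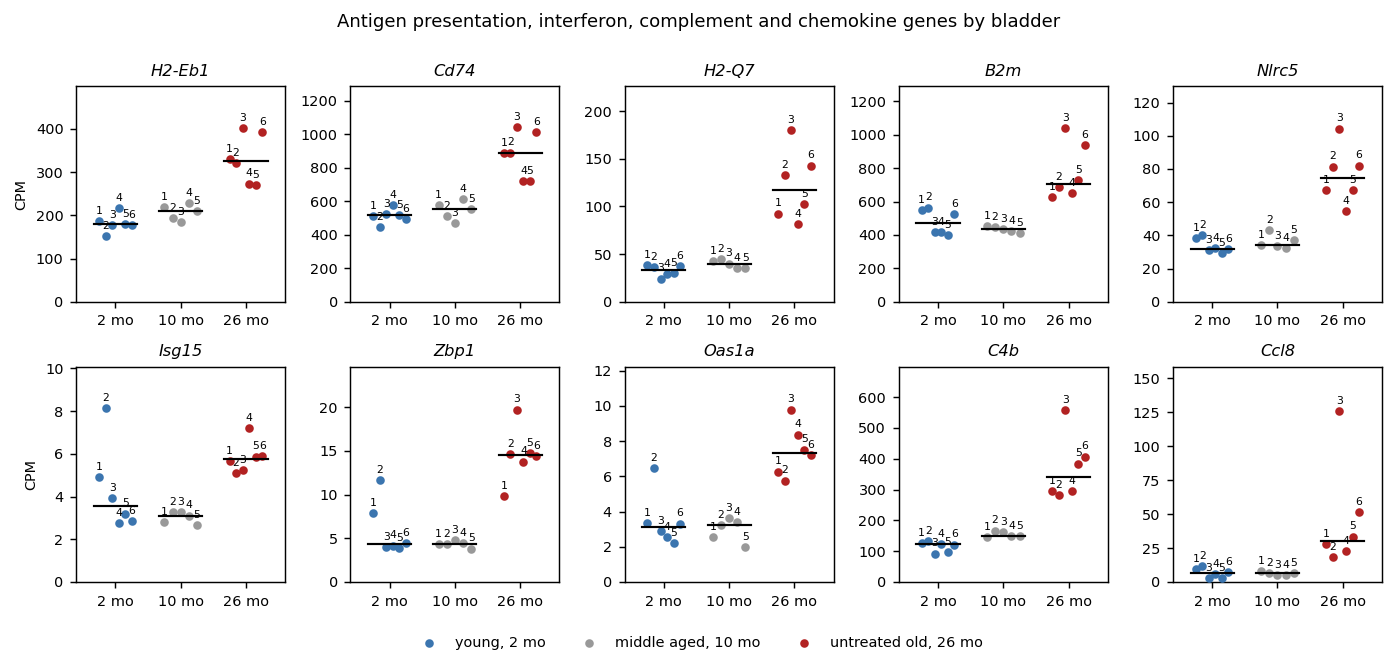
Levels in CPM, on a linear axis from 0, of 10 genes of antigen presentation, interferon response, complement and chemokines in every bladder, numbered by replicate, with young in blue, middle-aged in grey, old in red and the group median as a bar. Old bladder 3 is the highest old bladder for B2m, Ccl8 and C4b, and young bladder 2 reaches or approaches the old range for Zbp1 and Oas1a and lies above it for Isg15.

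Collagen genes showed the broadest fall. Of 18 collagens, 16 were lower in old bladders, against 12.4% of all genes, and none was higher. The median log2 fold change was -0.98, and the number called was 16 or 17 under every alternative. In 14 every old bladder lay below every young bladder, against 5.93% of all genes. Together they made up 1.95% to 3.57% of the counts in young bladders and 1.24% to 1.37% in old bladders. The spread was wide within the young group, where the sum ran from 19124 CPM in young bladder 5 to 37630 CPM in young bladder 1, and narrow among old bladders. Middle-aged bladders stood at 12046 to 16331 CPM, below the young range and mostly within that of old bladders.

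Col1a1 (ENSMUSG00000001506, chromosome 11 of mm10, 94936224 to 94953042), the main chain of fibrillar type I collagen, was at 3883 to 8183 CPM (median 5413) in the young bladders and 2273 to 2634 CPM (median 2327) in the old bladders. Every old bladder was below every young one (log2 fold change -1.27, standard error 0.17, edgeR adjusted p = 0.000169), and the middle-aged bladders were at 2305 to 3348 CPM (median 2637). Col3a1 (ENSMUSG00000026043, chromosome 1 of mm10, 45311538 to 45349706), of the type III collagen of distensible tissue, was at 3763 to 8609 CPM (median 5480.4) in the young bladders and 1945 to 2280.4 CPM (median 2079.9) in the old bladders, also without overlap (log2 fold change -1.51, standard error 0.20, edgeR adjusted p = 0.000153). Col6a1, of the beaded filaments around cells, was at 1057 to 1606 CPM (median 1375) in the young bladders and 708 to 748 CPM (median 723) in the old bladders (log2 fold change -0.89, edgeR adjusted p = 4.18e-05). The minor fibrillar collagens Col5a3 and Col11a1, which help to start fibrils, fell without overlap too (log2 fold change -1.301, edgeR adjusted p = 5.53e-05 for Col5a3 and log2 fold change -1.88, edgeR adjusted p = 4.10e-05 for Col11a1). Col12a1, a collagen of fibril surfaces, was one of the members that did not pass, at 580.4 to 1066 CPM (median 731) in the young bladders and 729.7 to 897 CPM (median 763) in the old bladders (edgeR adjusted p = 0.891), and was named after its value was seen.

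Of 22 genes that modify, fold, cleave and crosslink collagen, 14 were lower and none higher (median log2 fold change -0.49). Bmp1, which cleaves the C-terminal propeptide, was at 146 to 199 CPM (median 175) in the young bladders and 97.1 to 106 CPM (median 103) in the old bladders, and Adamts2, which cleaves the N-terminal one, at 148 to 299 CPM (median 203) in the young bladders and 76.5 to 101 CPM (median 89.5) in the old bladders. Both fell without overlap (log2 fold change -0.76, edgeR adjusted p = 2.58e-05 for Bmp1 and log2 fold change -1.27, edgeR adjusted p = 0.000113 for Adamts2). Fkbp10, a chaperone of procollagen, was at 86.5 to 137 CPM (median 105) in the young bladders and 61.6 to 64.8 CPM (median 62.7) in the old bladders (log2 fold change -0.75, edgeR adjusted p = 5.36e-05). Lox (ENSMUSG00000024529, chromosome 18 of mm10, 52516067 to 52529867), the lysyl oxidase that starts crosslinks, was at 43.8 to 162 CPM (median 82.3) in the young bladders and 21.4 to 53.9 CPM (median 34.8) in the old bladders, with old bladder 6 above young bladder 4 (log2 fold change -1.43, standard error 0.30, edgeR adjusted p = 0.00367). Within the young group Lox was highest in young bladders 1, 2 and 6, the bladders that were also highest in Eln, Col1a1 and Col3a1.

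Elastic fibre genes fell as well. Of 17, 12 were lower and 1 higher in old bladders. Eln (ENSMUSG00000029675, chromosome 5 of mm10, 134702593 to 134747323), elastin itself, was at 806, 396, 126, 121, 115 and 350.04 CPM in young bladders 1 to 6 and at 44.3 to 78.1 CPM (median 62.7) in old bladders. The young bladders fell apart into 3 high and 3 lower ones, and all of them lay above every old bladder (log2 fold change -2.34, standard error 0.45, edgeR adjusted p = 0.00195). Without young bladders 1 and 2 the log2 fold change of Eln was -1.51 and without young bladders 3 and 4 -2.72 (edgeR adjusted p = 0.00372 and 0.00062). Fbn1, fibrillin-1 of the microfibrils, was at 173 to 511 CPM (median 277) in the young bladders and 96.6 to 132 CPM (median 109) in the old bladders (log2 fold change -1.46, edgeR adjusted p = 0.000684). Mfap2, a microfibril glycoprotein, was at 21.6 to 37.7 CPM (median 26.9) in the young bladders and 14.03 to 15.8 CPM (median 14.4) in the old bladders, and Fbln1, fibulin-1, at 1148 to 1420.2 CPM (median 1286) in the young bladders and 901 to 1021 CPM (median 958) in the old bladders, both with old bladders below all young ones (log2 fold change -0.95, edgeR adjusted p = 0.000218 for Mfap2 and log2 fold change -0.44, edgeR adjusted p = 0.000161 for Fbln1). The rise was Ltbp2, a microfibril-binding protein, at 3.59 to 7.22 CPM (median 5.299) in the young bladders and 5.04 to 9.52 CPM (median 8.93) in the old bladders, which passed only just (log2 fold change 0.55, edgeR adjusted p = 0.0483) and lost its call in several alternatives.

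Several proteases that cut matrix fell, while stromelysin-1 rose. Of 16 matrix metalloproteinases and their inhibitors, 8 were lower and 2 higher, and the others did not pass. Mmp2, a gelatinase of fibroblasts, was at 545 to 714 CPM (median 633) in the young bladders and 336 to 399 CPM (median 361) in the old bladders, and Mmp14, the membrane protease that activates it, at 330.1 to 426 CPM (median 366) in the young bladders and 227 to 254 CPM (median 241) in the old bladders. Old bladders were lower throughout (log2 fold change -0.796, standard error 0.064, edgeR adjusted p = 3.38e-06 for Mmp2 and log2 fold change -0.62, edgeR adjusted p = 1.30e-05 for Mmp14). Mmp16, another membrane-bound member, was at 3.63 to 5.33 CPM (median 4.82) in the young bladders and 2.64 to 3.27 CPM (median 2.88) in the old bladders (log2 fold change -0.69, edgeR adjusted p = 0.0003604). Mmp3 (ENSMUSG00000043613, chromosome 9 of mm10, 7445822 to 7455975), stromelysin-1, was at 0.8903 to 1.92 CPM (median 1.51) in the young bladders and 4.93 to 10.5 CPM (median 7.79) in the old bladders, with 1.05 to 2.94 CPM (median 1.43) in the middle-aged bladders. It rose with no overlap (log2 fold change 2.43, standard error 0.25, edgeR adjusted p = 2.05e-05). Timp4, a tissue inhibitor of these proteases, was at 0.477 to 1.35 CPM (median 0.772) in the young bladders and 1.31 to 2.89 CPM (median 1.53) in the old bladders (log2 fold change 1.07, edgeR adjusted p = 0.0148), a call lost without young bladders 1 and 2, and it lies inside Syn2 in the annotation.

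Of 18 fibroblast genes, 12 were lower and 2 higher (median log2 fold change -0.33). Postn, periostin, a matricellular protein of growing and healing tissue, was at 478 to 649.7 CPM (median 584) in the young bladders and 269 to 339.7 CPM (median 294) in the old bladders. Old bladders lay below young ones without overlap (log2 fold change -0.92, standard error 0.087, edgeR adjusted p = 1.01e-05). Sparc, osteonectin, which binds collagen as it is assembled, was at 1680.4 to 4056 CPM (median 2446) in the young bladders and 917 to 1004 CPM (median 959) in the old bladders (log2 fold change -1.500, standard error 0.20, edgeR adjusted p = 0.000165). Cd34, a surface glycoprotein of fibroblasts and vessels, was at 253 to 306 CPM (median 278) in the young bladders and 184 to 207 CPM (median 202) in the old bladders (log2 fold change -0.49, edgeR adjusted p = 2.19e-05). The rises were Thy1, at 86.6 to 118 CPM (median 95.5) in the young bladders and 113 to 140.3 CPM (median 119) in the old bladders, and Ly6a, the Sca-1 antigen, at 101 to 176 CPM (median 137) in the young bladders and 154 to 268 CPM (median 179.6) in the old bladders, surface proteins that lymphocytes also carry (log2 fold change 0.297, edgeR adjusted p = 0.0154 for Thy1 and log2 fold change 0.499, edgeR adjusted p = 0.0271 for Ly6a). Old bladder 3 was highest for Ly6a and old bladder 5 for Thy1, and Ly6a lost its call in 5 alternatives and Thy1 in 1, without young bladders 1 and 2 (edgeR adjusted p = 0.0711). The part of lymphocytes in these rises was not tested.

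Proliferation genes did not separate the ages. Of 32 cell cycle genes, 1 was higher and 1 lower, against 12.6% and 12.4% of all genes. Mki67 (ENSMUSG00000031004, chromosome 7 of mm10, 135689784 to 135716361), the Ki-67 antigen of dividing cells, was at 5.48 to 30.8 CPM (median 11.7) in the young bladders and 10.7 to 31.3 CPM (median 21.4) in the old bladders and did not pass (log2 fold change 0.496, standard error 0.39, edgeR adjusted p = 0.393). Young bladders were spread over most of the old range and below it, with young bladders 1 and 2 at 30.8 and 23.2 CPM and young bladders 4 and 5 at 5.78 and 5.48 CPM, while the middle-aged bladders were at 2.86 to 6.61 CPM (median 4.24). Without young bladders 1 and 2 it passed, with a log2 fold change of 1.27 (edgeR adjusted p = 0.0108), and 5 cell cycle genes were then higher. Plk1, a mitotic kinase, was at 4.197 to 7.16 CPM (median 5.66) in the young bladders and 5.33 to 10.8 CPM (median 7.92) in the old bladders (log2 fold change 0.53, edgeR adjusted p = 0.0334), and Ccnd1, cyclin D1, at 99.95 to 198 CPM (median 138) in the young bladders and 86.7 to 126 CPM (median 107) in the old bladders (log2 fold change -0.403, edgeR adjusted p = 0.0426). Both calls were lost in several alternatives, and the ages overlapped in both.

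**Figure D5:**
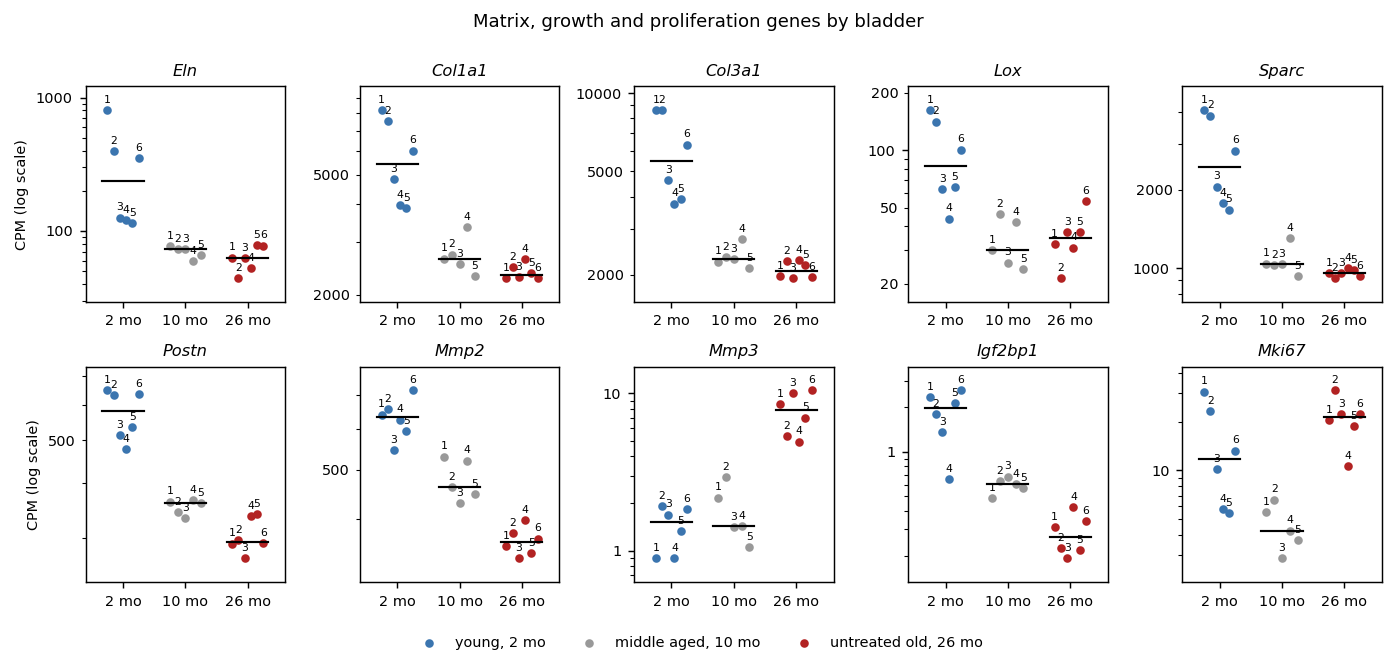
Levels in CPM, on log axes, of 10 genes of matrix, growth and proliferation in every bladder, numbered by replicate, with young in blue, middle-aged in grey, old in red and the group median as a bar. Young bladders 1, 2 and 6 are the highest for Eln, Col1a1, Col3a1, Lox and Sparc, all old bladders lie below all young bladders for each matrix gene except Lox and Mmp3, and Mki67 overlaps between the ages.

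Imprinted and fetal growth genes fell. Of 20 tested, 11 were lower and 2 higher (median log2 fold change -0.58). Igf2bp1 (ENSMUSG00000013415, chromosome 11 of mm10, 95957163 to 96005940), an RNA-binding protein of fetal tissue, was at 0.655 to 2.59 CPM (median 1.97) in the young bladders and 0.192 to 0.423 CPM (median 0.268) in the old bladders. It fell to near the floor of detection in every old bladder (log2 fold change -2.68, standard error 0.31, edgeR adjusted p = 4.61e-05), and its middle-aged levels were 0.486 to 0.68002 CPM (median 0.606). H19, a maternally expressed RNA of the growing embryo, was at 1.61 to 6.25 CPM (median 4.71) in the young bladders and 1.06 to 2.54 CPM (median 1.43) in the old bladders (log2 fold change -1.56, edgeR adjusted p = 0.00128). Igf2, the paternally expressed growth factor next to it, was at 30.9 to 42.2 CPM (median 38.5) in the young bladders and 25.98 to 30.9 CPM (median 27.3) in the old bladders (log2 fold change -0.46, edgeR adjusted p = 0.0003396), a smaller fall with the lowest young bladder at the edge of the old range. Meg3, a maternally expressed RNA, was at 348 to 455 CPM (median 403) in the young bladders and 199.6 to 263 CPM (median 234) in the old bladders, and Ndn, necdin, at 29.96 to 38.2 CPM (median 37.04) in the young bladders and 15.4 to 21.9 CPM (median 19.4) in the old bladders, both without overlap (log2 fold change -0.77, edgeR adjusted p = 4.60e-05 for Meg3 and log2 fold change -0.91, edgeR adjusted p = 2.50e-05 for Ndn). Lin28b, a fetal regulator of let-7 RNAs, rose from 0 to 10 counts per young bladder to 0.979 to 1.49 CPM (median 1.15) in old bladders (log2 fold change 2.55, edgeR adjusted p = 0.000109), with 0.551 to 0.908 CPM (median 0.626) at 10 months. Lin28b entered the test through its old-bladder counts, so the size of this rise is uncertain. Its log2 fold change ran from 0.44 to 2.75 over the alternatives. Hmga1, a chromatin protein of growing cells, was at 33.3 to 45.7 CPM (median 39.7) in the young bladders and 45.1 to 49.96 CPM (median 47.5) in the old bladders (log2 fold change 0.27, edgeR adjusted p = 0.0107).

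The genes that fell furthest, among those with more than 3 counts in at least 4 old bladders and no overlap, belonged to several families. Nrk (ENSMUSG00000052854, chromosome X of mm10, 138914430 to 139010532), a kinase of the fetus and placenta, was at 0.609 to 3.895 CPM (median 2.14) in the young bladders and 0 to 0.219 CPM (median 0.0984) in the old bladders, with 0.194 to 0.379 CPM (median 0.358) in middle-aged bladders (log2 fold change -4.41, standard error 0.50, edgeR adjusted p = 4.60e-05). Slc38a4, an imprinted amino acid transporter, was at 7.86 to 12.6 CPM (median 10.3) in the young bladders and 1.63 to 2.79 CPM (median 2.196) in the old bladders, with little spread in either group (log2 fold change -2.21, standard error 0.15, edgeR adjusted p = 1.28e-06). Gabrb2, a subunit of the GABA-A receptor, was at 0.774 to 3.21 CPM (median 1.09) in the young bladders and 0.152 to 0.475 CPM (median 0.236) in the old bladders, the highest being young bladder 2 (log2 fold change -2.49, edgeR adjusted p = 0.000575). Hoxb13, a homeobox gene of the hind body, was at 0.948 to 1.61 CPM (median 1.16) in the young bladders and 0.0638 to 0.406 CPM (median 0.33997) in the old bladders (log2 fold change -2.05, edgeR adjusted p = 0.000188). Creb3l3, a membrane-bound transcription factor best known from liver, fell with a log2 fold change of -2.41, Ankrd63, an ankyrin repeat gene, of -2.41 and Tmem200a, of a transmembrane protein, of -2.11 (edgeR adjusted p = 0.000442, 0.000349 and 3.58e-05). In each of these genes all old bladders were below all young bladders. The rule for naming the largest falls, which also include Igf2bp1, Eln and Hhatl, required this. Nrk, Gabrb2 and Hoxb13 were near the floor of detection in old bladders and entered the test through their young-bladder counts. The sizes of their falls are therefore uncertain. Over the alternatives the log2 fold change ran from -4.72 to -0.81 for Nrk, -2.75 to -0.60 for Gabrb2 and -2.18 to -1.03 for Hoxb13.

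Smooth muscle genes were lower by small amounts. Of 20, 12 were lower and none higher (median log2 fold change -0.29), a number that was 7 without old bladder 2 and 7 without young bladders 3 and 4. Myocd, myocardin, the coactivator of contractile genes, was at 95.8 to 131 CPM (median 104) in the young bladders and 68.7 to 83.4 CPM (median 76.6) in the old bladders, with no overlap (log2 fold change -0.48, standard error 0.073, edgeR adjusted p = 0.000359). Smtn, smoothelin, of contractile smooth muscle, was at 931 to 1239.5 CPM (median 1153) in the young bladders and 797 to 916 CPM (median 864) in the old bladders (log2 fold change -0.399, edgeR adjusted p = 0.00109). Myl6, a myosin light chain, was at 1916 to 2517 CPM (median 2262) in the young bladders and 1743 to 1951 CPM (median 1823) in the old bladders, where the edges of the groups overlapped (log2 fold change -0.299, edgeR adjusted p = 0.00477). Rgs2, a brake on the G protein signals of smooth muscle receptors, was at 179 to 417 CPM (median 349) in the young bladders and 120.1 to 177 CPM (median 145) in the old bladders, lower in every old bladder (log2 fold change -1.102, standard error 0.18, edgeR adjusted p = 0.0006599), and at 235 to 401 CPM (median 296) in middle-aged bladders.

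Receptors for the transmitters of the bladder were called in shares near those over all genes, in both directions. Of 16, 3 were higher and 2 lower. Chrm3, the muscarinic receptor that drives voiding contraction, was at 14.6 to 51.97 CPM (median 26.2) in the young bladders and 25.4 to 47.5 CPM (median 29.4) in the old bladders and did not pass (log2 fold change 0.095, edgeR adjusted p = 0.8403), and it overlaps other transcripts in the annotation. P2rx1, the ATP receptor of detrusor muscle, was at 709 to 1077 CPM (median 901) in the young bladders and 662 to 756 CPM (median 706) in the old bladders (log2 fold change -0.34, edgeR adjusted p = 0.00777). Adra1a, an alpha-1 adrenergic receptor near the floor, fell as well (log2 fold change -0.91, edgeR adjusted p = 0.01796), a call lost with limma and without young bladders 1 and 2. Adora2a, an adenosine receptor also found on lymphocytes, was at 1.69 to 3.71 CPM (median 2.86) in the young bladders and 4.48 to 5.83 CPM (median 5.21) in the old bladders, with all old bladders higher (log2 fold change 0.84, edgeR adjusted p = 0.00241). The ATP receptors P2rx4 and P2rx7 rose without overlap by log2 fold changes of 0.22 and 0.27 (edgeR adjusted p = 0.0154 and 0.0173), and both lost their calls with limma on log2(TPM + 1), P2rx7 also on log2(TPM + 0.1).

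Several genes of Schwann cells fell, while Stmn2 of neurons and Mbp of myelin rose. Of 18, 8 were lower and 2 higher. Sox10 (ENSMUSG00000033006, chromosome 15 of mm10, 79154908 to 79165240), the transcription factor of the Schwann cell lineage, was at 13.2 to 16.1 CPM (median 14.1) in the young bladders and 6.02 to 8.05 CPM (median 7.93) in the old bladders. The ages were well apart (log2 fold change -0.93, standard error 0.084, edgeR adjusted p = 8.12e-06). Pmp22, a myelin protein that fibroblasts also express, was at 157 to 217 CPM (median 193) in the young bladders and 108 to 131 CPM (median 122) in the old bladders (log2 fold change -0.64, edgeR adjusted p = 0.0001305). Mbp, myelin basic protein, whose locus also makes transcripts in lymphocytes, was at 55.8 to 74.3 CPM (median 67.5) in the young bladders and 72.4 to 84.1 CPM (median 81.2) in the old bladders (log2 fold change 0.25, edgeR adjusted p = 0.0106), a rise lost with limma. Stmn2, stathmin-2 of neurons, was at 6.69 to 9.95 CPM (median 7.32) in the young bladders and 8.73 to 13.9 CPM (median 11.8) in the old bladders, higher in old bladders with overlap (log2 fold change 0.598, edgeR adjusted p = 0.00267).

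Of 18 endothelial genes, 9 were lower and 2 higher in old bladders. Aplnr, the apelin receptor of growing vessels, was at 8.597 to 15.2 CPM (median 10.9) in the young bladders and 3.67 to 6.74 CPM (median 4.35) in the old bladders, with 9.74 to 12.2 CPM (median 10.5) in the middle-aged bladders. Every old bladder was below every young one (log2 fold change -1.25, standard error 0.17, edgeR adjusted p = 0.000132). Pecam1, an adhesion molecule of endothelium, was at 97.4 to 123 CPM (median 104) in the young bladders and 72.5 to 93.3 CPM (median 79.5) in the old bladders (log2 fold change -0.401, edgeR adjusted p = 0.000604). Cdh5, the cadherin of endothelial junctions, was at 53.9 to 62.3 CPM (median 59.4) in the young bladders and 38.01 to 46.98 CPM (median 42.2) in the old bladders (log2 fold change -0.47, edgeR adjusted p = 7.19e-05), and Cldn5, a tight junction protein of vessels, at 21.9 to 30.3 CPM (median 24.4) in the young bladders and 15.8 to 20.3 CPM (median 16.7) in the old bladders (log2 fold change -0.53, edgeR adjusted p = 0.000528). Vwf, the von Willebrand factor, went up, at 80.5 to 93.7 CPM (median 86.5) in the young bladders and 97.3 to 129 CPM (median 111) in the old bladders, without overlap (log2 fold change 0.35, edgeR adjusted p = 0.00127). Flt1, a receptor of vascular endothelial growth factor, was at 44.7 to 52.1 CPM (median 48.8) in the young bladders and 52.1 to 57.7 CPM (median 54.6) in the old bladders (log2 fold change 0.18, edgeR adjusted p = 0.00659), and lost its call with limma.

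Striated muscle lies at the bladder neck and around the urethra. Skeletal muscle genes fell in 5 of 13 genes tested and rose in none. Myh4, Tnnc2, Pvalb and Myoz1, also listed, had too few counts to be tested, and the presence of striated muscle in these samples was not tested. Ckm, muscle creatine kinase, was at 121 to 158 CPM (median 132) in the young bladders and 85.2 to 102 CPM (median 96.8) in the old bladders, Mylk2, the skeletal myosin light chain kinase, at 0.947 to 1.76 CPM (median 1.22) in the young bladders and 0.254 to 0.456 CPM (median 0.313) in the old bladders and Hhatl, a regulator of lipid modification in striated muscle, at 1.55 to 3.66 CPM (median 2.84) in the young bladders and 0.366 to 0.895 CPM (median 0.519) in the old bladders. The old bladders lay below the young ones in all 3 (log2 fold change -0.51, edgeR adjusted p = 8.51e-05 for Ckm, log2 fold change -1.87, edgeR adjusted p = 4.98e-05 for Mylk2 and log2 fold change -2.18, edgeR adjusted p = 7.04e-05 for Hhatl). The summed level of the list was 540.5 to 1264 CPM in the young and 412 to 531 CPM in the old bladders. The part of striated muscle in other results was not tested. Of 12 adipocyte genes, 1 was lower and none higher, namely Lpl, lipoprotein lipase, at 46.3 to 138 CPM (median 79.7) in the young bladders and 35.9 to 73.1 CPM (median 46.7) in the old bladders (log2 fold change -0.84, edgeR adjusted p = 0.0213). Its call was lost without young bladder 6 and without young bladders 1 and 2.

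The urothelium showed almost no call. Of 24 genes of its layers, 1 was higher, none was lower and the median log2 fold change was 0.01, against 25.1% called over all genes. Foxa1, a transcription factor of urothelial differentiation, was at 117 to 135 CPM (median 124) in the young bladders and 131 to 149 CPM (median 139.9) in the old bladders and passed narrowly (log2 fold change 0.14, edgeR adjusted p = 0.04301), a call lost in several alternatives. Krt5, the keratin of basal cells, was at 436 to 582 CPM (median 571) in the young bladders and 391 to 617 CPM (median 489) in the old bladders and did not pass (log2 fold change -0.15, edgeR adjusted p = 0.341). Krt20, the keratin of umbrella cells, was at 90.2 to 111 CPM (median 96.9) in the young bladders and 66.9 to 93.4 CPM (median 87.01) in the old bladders (log2 fold change -0.21, edgeR adjusted p = 0.0763), and passed as lower in a fit with the middle-aged bladders and with limma. The numbers lay between 0 and 3 in either direction over the alternatives.

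The senescence and secretory markers that the study examined gave 1 call. Of 16 markers, 12 had enough counts, and 1 was higher in old bladders, Mmp3, described above. The log2 fold change was positive in 11 of the 12, with a median of 0.54. The list was chosen by the study for its interest in these samples and is no independent evidence of a direction. Cdkn2a (ENSMUSG00000044303, chromosome 4 of mm10, 89274471 to 89294653), which encodes the cell cycle inhibitor p16, was at 0.345 to 1.08 CPM (median 0.712) in the young bladders and 0.862 to 1.47 CPM (median 0.975) in the old bladders and did not pass (log2 fold change 0.68, standard error 0.26, edgeR adjusted p = 0.0721). The highest young bladders lay inside the old range, and it passed without young bladder 3 (log2 fold change 0.82, edgeR adjusted p = 0.0301) and in fits with more groups. Cdkn1a (ENSMUSG00000023067, chromosome 17 of mm10, 29090976 to 29100727), which encodes p21, was at 49.5 to 83.1 CPM (median 61.9) in the young bladders and 68.9 to 79.2 CPM (median 71.3) in the old bladders and at 76.1 to 85.1 CPM (median 80.8) in middle-aged bladders, and did not pass (log2 fold change 0.204, standard error 0.092, edgeR adjusted p = 0.126). It passed as higher without young bladder 4 and without young bladders 3 and 4 (edgeR adjusted p = 0.00392 and 0.00227). Tgfb1, a growth factor of fibrosis, was at 38.1 to 47.7 CPM (median 45.8) in the young bladders and 43.7 to 52.3 CPM (median 48.7) in the old bladders (log2 fold change 0.14, edgeR adjusted p = 0.137). The number of markers called was 5 without young bladder 2 and also 5 without young bladders 1 and 2. It was 3 without young bladder 3 and 4 without young bladders 3 and 4.

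Tnf, a cytokine of macrophages and T cells, shows how the young group bears on these markers, and was named after its values were seen. It was at 0.2597, 2.29, 0.474, 0.357, 0.173 and 0.449 CPM in young bladders 1 to 6 and at 0.817 to 2.04 CPM (median 1.599) in old bladders, where young bladder 2 was above every old bladder and the other young bladders were lower (edgeR adjusted p = 0.126). Of 22 cyclin-dependent kinase inhibitors and p53 targets, 3 were higher and none lower, and the share higher was near the 12.6% over all genes. Without young bladders 3 and 4, 7 were higher and 2 lower. Cdkn2c, which encodes p18, was at 4.87 to 8.198 CPM (median 7.88) in the young bladders and 9.46 to 12.6 CPM (median 10.3) in the old bladders and Ccng1, cyclin G1, a target of p53, at 118 to 161 CPM (median 146) in the young bladders and 173 to 184 CPM (median 178) in the old bladders, both without overlap (log2 fold change 0.57, edgeR adjusted p = 0.00447 for Cdkn2c and log2 fold change 0.296, edgeR adjusted p = 0.00426 for Ccng1). Trp53inp1, a p53-inducible nuclear protein, was at 20.04 to 66.3 CPM (median 55.6) in the young bladders and 60.3 to 126 CPM (median 82.005) in the old bladders (log2 fold change 0.75, edgeR adjusted p = 0.0363), a call lost in several alternatives.

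Mitochondrial genes moved little. None of the 13 genes encoded in mitochondria was called by edgeR, with 1 at an unadjusted p under 0.05, and 1 was lower with DESeq2 or limma and 2 without young bladder 4 or without young bladders 3 and 4. Their summed level was 22832 to 30711 CPM in the young and 26910 to 30100 CPM in the old bladders. Of 26 nuclear genes of the respiratory chain and its regulation, 8 were lower and 1 higher (median log2 fold change -0.14), and the number lower was 4 without young bladder 3 or old bladder 1 and 18 without young bladders 1 and 2. Ndufa4 was at 146 to 179 CPM (median 155) in the young bladders and 129 to 141 CPM (median 139) in the old bladders, Ndufs1, a core subunit of complex I, at 89.0 to 99.7 CPM (median 90.7) in the young bladders and 78.6 to 85.8 CPM (median 81.5) in the old bladders and Atp5o, of ATP synthase, at 85.04 to 104 CPM (median 89.2) in the young bladders and 77.8 to 84.1 CPM (median 79.5) in the old bladders. Old bladders were below all young ones in each, by log2 fold changes of -0.21, -0.16 and -0.21 (edgeR adjusted p = 0.00607, 0.00752 and 0.009502). Ppargc1a, the PGC-1alpha coactivator of mitochondrial biogenesis, was the gene that rose, at 5.302 to 8.39 CPM (median 6.796) in the young bladders and 8.52 to 9.86 CPM (median 9.32) in the old bladders (log2 fold change 0.46, edgeR adjusted p = 0.00472).

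Some clock genes were called in each direction. Of 18, 4 were higher and 2 lower in old bladders, against 12.6% and 12.4% of all genes, so the share lower was near that over all genes. Arntl, the activator BMAL1, was at 9.77 to 22.9 CPM (median 18.7) in the young bladders and 6.82 to 13.7 CPM (median 8.42) in the old bladders, and Npas2, its partner, at 10.7 to 21.001 CPM (median 17.1) in the young bladders and 6.87 to 10.3 CPM (median 7.65) in the old bladders. Both fell (log2 fold change -0.91, edgeR adjusted p = 0.00956 for Arntl and log2 fold change -1.02, edgeR adjusted p = 0.000486 for Npas2), and the ages were separate for Npas2. Per2, a repressor of that pair, was at 38.4 to 74.6 CPM (median 45.1) in the young bladders and 70.4 to 121 CPM (median 107) in the old bladders and at 56.1 to 85.04 CPM (median 73.01) in middle-aged bladders. It rose (log2 fold change 0.96, standard error 0.18, edgeR adjusted p = 0.001703), with the highest young bladder above the lowest old one. Bhlhe40, another repressor, rose too (log2 fold change 0.47, edgeR adjusted p = 0.00536). The labels give no hour of collection, so a difference in the time of day cannot be told apart from age here, and the number higher was 7 or 8 without young bladder 4 or 5.

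Fkbp5, a co-chaperone of the glucocorticoid receptor whose gene that receptor induces, showed one of the clearest rises outside the immune genes. It was at 24.8 to 36.7 CPM (median 34.4) in the young bladders and 67.03 to 90.5 CPM (median 76.9) in the old bladders and at 28.9 to 37.1 CPM (median 34.2) in the middle-aged bladders. All old bladders were above all young ones with little spread (log2 fold change 1.24, standard error 0.093, edgeR adjusted p = 2.04e-06). Of 9 steroid receptors and their targets, 3 were higher and none lower, a number between 1 and 5 over the alternatives. Esr1, the oestrogen receptor alpha, was at 13.2 to 23.6 CPM (median 17.1) in the young bladders and 15.9 to 21.9 CPM (median 21.05) in the old bladders and did not pass (log2 fold change 0.205, edgeR adjusted p = 0.238). Greb1, an oestrogen-induced gene, was at 0.542 to 1.31 CPM (median 0.873) in the young bladders and 0.7805 to 2.96 CPM (median 2.01) in the old bladders (log2 fold change 1.03, edgeR adjusted p = 0.0331). Its call was lost in several alternatives.

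Stress genes gave 1 rise and 1 fall among 19 heat shock genes and chaperones, and no edgeR call among 20 immediate early genes, which respond within minutes to handling of tissue. Of these, none had an unadjusted p under 0.05 and none was called by DESeq2 or limma, but 2 were higher without young bladder 3 and 3 without young bladders 3 and 4. Pdia4, a chaperone of the secretory pathway, was at 102 to 133 CPM (median 117) in the young bladders and 129 to 178 CPM (median 141) in the old bladders (log2 fold change 0.33, edgeR adjusted p = 0.0142), and Cryab, the alpha-B crystallin of muscle, at 58.5 to 82.9 CPM (median 77.4) in the young bladders and 63.04 to 67.1 CPM (median 65.3) in the old bladders (log2 fold change -0.19, edgeR adjusted p = 0.0486), a call lost in several alternatives. Fos was at 9.94 to 78.7 CPM (median 19.6) in the young bladders and 11.7 to 37.6 CPM (median 17.02) in the old bladders and did not pass (log2 fold change -0.44, edgeR adjusted p = 0.564). Young bladder 3 stood at 78.7 CPM, above all other bladders, and the direction turned without it.

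Tissue that might be carried along with the bladder was read from 2 more lists. None of 5 red blood cell genes was called, while their sum was 52.97 to 406 CPM in the young and 70.98 to 578 CPM in the old bladders, highest in young bladder 2 among the young and old bladder 3 among the old, and 4 were higher without young bladder 2. Of 7 genes of ovary and reproductive tract, Inha, an inhibin subunit, was lower (log2 fold change -0.35, edgeR adjusted p = 0.00228) and Star, of steroid synthesis, higher (log2 fold change 0.31, edgeR adjusted p = 0.0217). The call of Star was lost with limma, without old bladder 5 and without young bladders 1 and 2. Cyp19a1, the aromatase of the ovary, had 0 counts in all 12 bladders.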

How the data were processed

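RNA was sequenced from whole bladders of untreated female C57BL/6 mice. The authors used STAR 2.7.3 for alignment to mm10 and featureCounts, of the Subread package, for counting, and deposited the raw counts of 32285 genes in each bladder. The same table holds the other value the authors deposited, a length in bases for every gene. Their library kit was TruSeq Stranded Total RNA. Whether counting used the strand is not given in the sources used here, so genes that overlap another on either strand are uncertain, as are immunoglobulin, T cell receptor and MHC genes, whose reads can be shared. A table of normalized values by the authors was not used.

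The 6 untreated old bladders were compared with the 6 young ones by edgeR 4.0.16 in R 4.3.3, with TMM factors, filterByExpr to drop genes with low counts, the two-sided quasi-likelihood test and a threshold of 0.05 on the p adjusted by Benjamini and Hochberg's method over the 16873 genes tested. CPM used the TMM factors, and plots and tables used Python 3.11.15 with matplotlib 3.10.9. Coordinates and 32235 symbols came from GENCODE M21 on mm10. Summed counts were 15088372 to 52650259 per bladder, which sets the detection floor of 3 counts. Replicates within a group correlated at 0.975 to 0.991, and no 2 libraries were identical. The fitting code was tested on simulated counts.

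Genes were named as the 10 largest non-overlapping changes in each direction with at least 1 CPM in the higher group and more than 3 counts in at least 4 bladders of the lower, the up to 3 members of each of 37 lists with the smallest adjusted p in each direction, and 34 fixed genes, and some genes that meet this rule are not reported here. Other genes are named after their values were seen, namely Xbp1, Irf4, H2-K1, H2-Aa and Ighg2b beside those marked in the text. The groups, lists and members were chosen with earlier results of these data known. Alternatives were DESeq2 1.42.0, RLE and upper quartile factors, TMM factors without immunoglobulin genes, no filter, at least 10 counts in every bladder, fits of 3 or all 6 groups, limma 3.58.1 on log2(TPM + 1) and log2(TPM + 0.1), with TPM computed from counts and lengths, the replicate number as a block, each bladder left out in turn, and the 2 pairs of young bladders.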

Additional observations from a re-analysis of the deposited data

Results flagged for a closer look

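Within a group of 6 bladders, 26 values of the named genes stood far from the other 5, with a gap to the nearest bladder above Dixon's 95% limit. There were 292 such checks, and chance sets apart about 1 in 20, so single values carry little weight, and values of the same bladder are not independent of each other.

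Old bladder 3 gave 7 of them, all high. It stood at 126 CPM for Ccl8 while the other old bladders stood at 18.3 to 51.5 CPM, at 50.5 CPM for Ccl5 (7.75 to 22.3 CPM in the others), at 12.1 CPM for Gzmk (1.12 to 4.84 CPM), at 20.5 CPM for C6 (2.32 to 7.73 CPM), at 44.8 CPM for Cd68 (31.2 to 35.9 CPM) and at 268 CPM for Ly6a (154 to 192 CPM). It also stood apart for P2rx7, at 44.5 CPM (35.5 to 38.8 CPM). Old bladder 6 was high in secretory B lineage genes, at 732 CPM for Jchain (113 to 332 CPM), 725 CPM for Ighg2b (70.3 to 312 CPM) and 261 CPM for Xbp1 (163 to 195 CPM). Single old bladders stood apart for Isg15, with old bladder 4 at 7.22 CPM, Cdkn2a, with old bladder 4 at 1.47 CPM, Thy1, with old bladder 5 at 140 CPM, and Esr1, with old bladder 1 low at 15.9 CPM.

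Young bladder 2 was high for Ighm at 54.7 CPM (19.5 to 31.5 CPM in the other young bladders), for Oas1a at 6.48 CPM (2.19 to 3.34 CPM), for Lyz2 at 372 CPM (219 to 269 CPM) and for Gabrb2 at 3.21 CPM (0.774 to 1.41 CPM). Young bladder 3 was high for Fos at 78.7 CPM (9.94 to 26.0 CPM) and for Ndufs1 at 99.7 CPM (89.0 to 91.9 CPM), and low for P2rx7 at 25.3 CPM (31.2 to 34.6 CPM). Young bladder 1 was high for Ltbr at 146 CPM and for Myocd at 131 CPM. Young bladder 4 was high for Stmn2 at 9.95 CPM and low for Igf2 at 30.9 CPM, and young bladder 5 was low for Cryab at 58.5 CPM.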

How the results depend on the processing

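The number of changed genes, 4229, stayed within 1.5 times under all 25 alternatives, with 4853 by DESeq2, 3877 and 3850 by limma with pseudocounts of 1 and 0.1, 3714 where at least 10 counts were required in every bladder, and 5009 and 5073 in fits of 3 and 6 groups. Leaving out each bladder in turn gave 3466 to 4540 changed genes, 1807 to 2312 higher and 1659 to 2228 lower. Leaving out young bladders 3 and 4 gave 5157 and young bladders 1 and 2 gave 4340, a choice made after seeing the data. Each alternative shared 79.1% to 99.6% of the reported calls, and no shared call changed sign. No scaling moved the median of all genes by more than 0.025 on the log2 scale. Over the named genes and alternatives, 3488 values kept their direction and side of the threshold, 113 lost the call, 19 gained it and 4 reversed. The reversed values were -0.0521 and -0.0450 for Chrm3 without young bladder 2 and without old bladder 1, and 0.20 and 0.38 for Fos without young bladder 3 and without young bladders 3 and 4. Leaving out single bladders, the log2 fold change ran from -0.0521 to 0.32 for Chrm3 and from -0.71 to 0.20 for Fos. None of the 4 reversed values passed the test, and the cause was not tested.

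The replicate numbers recur in both groups but name no shared animal or batch. Deviations of bladders with the same number correlated at -0.023 to 0.160, and 3 of 6 bladders correlated best with their own number, so the numbers were not taken as pairs. With the replicate number as a block, 4025 genes changed, 2142 higher and 1883 lower. Among the named genes the block removed the calls of Ccnd1, P2rx7 and Cryab and added that of Krt20 as lower. The detection floor is highest in young bladders 3 and 4, the shallowest libraries, and zero counts of B cell and immunoglobulin genes in young bladders say only that these genes were not detectable at this depth.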

Other observations

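Genes outside the 37 lists also changed by over 1.5-fold above 100 CPM, and the following were chosen after their values were seen. Means are given with their SD over 6 young, 5 middle-aged and 6 old bladders. Aldh3a1, an aldehyde dehydrogenase of surface epithelia, had means of 127 ± 47.5 CPM at 2 months, 251 ± 39.5 CPM at 10 months and 311 ± 35.2 CPM at 26 months (log2 fold change of old over young 1.30, edgeR adjusted p = 0.000372). Ugt2b34, a glucuronosyltransferase that conjugates foreign compounds and steroids, had means of 111 ± 21.8, 205 ± 17.2 and 226 ± 15.97 CPM at the 3 ages (log2 fold change 1.03, edgeR adjusted p = 2.52e-05). Fmo2, a flavin-containing monooxygenase, had means of 207 ± 27.5, 212 ± 14.5 and 361 ± 45.8 CPM (log2 fold change 0.80, edgeR adjusted p = 7.04e-05).

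Among falls outside the lists, Igfbp5, a binding protein of insulin-like growth factors, had means of 436 ± 109.8, 261 ± 43.7 and 198 ± 13.04 CPM at 2, 10 and 26 months (log2 fold change -1.14, edgeR adjusted p = 7.41e-05). Cd248, endosialin of stromal cells and pericytes, had means of 144 ± 35.6, 72.2 ± 7.49 and 69.1 ± 7.72 CPM (log2 fold change -1.06, edgeR adjusted p = 0.000188). Slc2a4, the insulin-responsive glucose transporter GLUT4, had means of 155 ± 14.4, 149.9 ± 8.46 and 103 ± 9.07 CPM (log2 fold change -0.60, edgeR adjusted p = 5.27e-05).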
